A study of Mus musculus with 6 samples.

Results

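The genes described here are 4 leukocyte integrin chains, Itgam, Itgax, Itgal and Itgb2, and 4 receptors for IgG, Fcgr1, Fcgr2b, Fcgr3 and Fcgr4. They were chosen by name, with earlier results of the same arrays known, and every probe set that the platform annotation assigns to 1 of them alone was taken. All 8 of 8 genes had such a probe set, 14 in all, out of 18194 genes with a single-gene probe set on the array. The tumours grew from KPC1199, a mouse pancreatic cancer cell line, injected under the skin of the back of mice. Mice of the lactation group received the cells during pregnancy or at the onset of nursing, and mice of the control group are labelled only as controls. Tumours of both groups were taken 20 days later from mice of the same age. Each of the 6 tumours, 3 per group, was measured on its own Affymetrix array. Strain, the age itself and the sex of the control mice are not given in the sources used here. Mice of the lactation group were pregnant or nursing and hence female. The labels do not tell which of them were pregnant and which nursed at injection.

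Leukocyte integrins are pairs of an alpha and a beta chain. Itgb2 encodes CD18, the beta chain shared by Mac-1 (with Itgam, CD11b), CD11c/CD18 (with Itgax) and LFA-1 (with Itgal, CD11a), and these pairs hold leukocytes to vessel walls and to opsonized targets. Fcgr1, Fcgr3 and Fcgr4 encode activating receptors that bind IgG-coated targets and signal through the common gamma chain Fcer1g, whereas Fcgr2b carries an inhibitory motif and dampens that signal. In a tumour these transcripts come mostly from macrophages, monocytes, neutrophils and dendritic cells, with Itgal also in lymphocytes. An array of whole tumour RNA cannot tell fewer cells of a type from less RNA per cell.

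The 3 alpha chain genes lie on mouse chromosome 7, where Itgam and Itgax are neighbours, and Fcgr2b, Fcgr4 and Fcgr3 follow each other on chromosome 1 in the GRCm38.p6 gene table. Itgb2 is on chromosome 10 and Fcgr1 on chromosome 3. RefSeq promoter windows of 300 bases, 250 before and 50 after the start, were given for 6 of the 8 genes, without Itgal and Itgb2. They are shown because promoters of several of these genes are textbook targets of the myeloid factor PU.1, whose core GAGGAA was searched on both strands. The 120 bases just before the start follow, 5′ to 3′ on the gene's strand, with GAGGAA or its reverse complement TTCCTC in capitals.

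Itgam (GRCm38.p6, chr7:128062520-128062639, plus strand): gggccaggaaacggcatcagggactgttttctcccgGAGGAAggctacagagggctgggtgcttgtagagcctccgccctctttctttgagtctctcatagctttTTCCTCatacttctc
Itgax (GRCm38.p6, chr7:128129430-128129549, plus strand): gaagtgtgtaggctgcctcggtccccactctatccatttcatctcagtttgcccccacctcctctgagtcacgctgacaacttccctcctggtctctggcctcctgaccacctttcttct
Fcgr1 (GRCm38.p6, chr3:96293970-96294089, minus strand): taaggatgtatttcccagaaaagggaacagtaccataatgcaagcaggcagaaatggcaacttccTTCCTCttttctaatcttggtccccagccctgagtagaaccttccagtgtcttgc
Fcgr3 (GRCm38.p6, chr1:171059395-171059514, minus strand): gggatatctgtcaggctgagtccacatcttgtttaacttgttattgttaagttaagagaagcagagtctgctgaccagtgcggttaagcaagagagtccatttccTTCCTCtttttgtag
Fcgr4 (GRCm38.p6, chr1:171018806-171018925, plus strand): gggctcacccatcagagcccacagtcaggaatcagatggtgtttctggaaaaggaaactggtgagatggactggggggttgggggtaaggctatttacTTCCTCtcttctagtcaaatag
Fcgr2b (GRCm38.p6, chr1:170976072-170976191, minus strand): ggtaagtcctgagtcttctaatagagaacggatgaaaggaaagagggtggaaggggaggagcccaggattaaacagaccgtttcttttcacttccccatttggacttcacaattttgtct

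The 6 letters were found in the windows of 4 of the 6 genes, and 28.3% of all 32851 RefSeq windows of this length hold them. Itgam had 3 matches, at 84 and 15 bases before the start and at 33 bases after it, and 0.685% of all windows have 3 or more. Fcgr1 had 1 match 55 bases before the start and Fcgr4 1 match 22 bases before it. The Fcgr3 match lay 15 or 6 bases before the start, depending on which of its starts is taken. The windows of Itgax and Fcgr2b held none. A second motif, the RUNX core TGTGGT, which shares no stretch with the first, was found in Itgax and Fcgr4, and 16.8% of all windows hold it on either strand. These matches describe letters in a window and were not tested as binding sites.

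The means of all 8 genes were lower in tumours of lactating mice, but 7 of them by small amounts whose groups overlapped. Itgam differed most, 1.56-fold lower, and was the sole member whose lactation and control arrays did not overlap. The next were Fcgr3, 1.24-fold lower, and Fcgr2b, 1.17-fold lower, and the other 5 lay between 1.04-fold and 1.11-fold. None of the 8 passed limma's test over all 11623 genes, at an adjusted p of 1 for each, and 0.00% of all genes were called. At an unadjusted p under 0.05 there was 1 member, Itgam, where 2.27% of all genes had such a p and 0.766% had it with a lower mean in lactation. Because the genes were proposed with this comparison known, these numbers describe the members and are no test of the list.

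Itgam, the CD11b chain of Mac-1 and a receptor for the complement fragment iC3b, had a MAS5 signal of 208, 218 and 185 in lactation replicates 1 to 3 and 224, 404 and 379 in control replicates 1 to 3. The 3 lactation arrays lay close together and under every control, and control replicate 1 was only just above them. The means were 204 ± 16.8 and 336 ± 97.2 (SD, n = 3 each). This is a log2 difference of -0.64 (standard error 0.23, limma unadjusted p = 0.0272, adjusted p = 1). Of all genes tested, 6.90% had groups that did not overlap, 3.19% with lactation the lower group. When 1 array was left out the difference was lowest without control replicate 1, at -0.89, and closest to 0 without control replicate 2, at -0.49. Its unadjusted p in limma was above 0.05 in 4 of these 6 fits: 0.0943 with control replicate 2 omitted, 0.0834 for control replicate 3, 0.0574 for lactation replicate 1 and 0.077 for lactation replicate 3. It was 0.000976 for control replicate 1 and 0.0473 for lactation replicate 2, and the adjusted test was passed in none. Itgam was the dimmest member, at 1.71 times the array median on its lowest array, and was represented by a single probe set.

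Its genomic neighbour Itgax, the CD11c chain found on dendritic cells and tissue macrophages, measured 1257, 1815 and 1037 in lactation and 1714, 1455 and 1297 in controls. The highest and the lowest array were both lactation arrays, so that the control values lay within the lactation range. The log2 difference was -0.15 (standard error 0.21). Itgal, the CD11a chain of LFA-1, measured 655, 863 and 571 in lactation and 639, 814 and 791 in controls, again with the lactation arrays at either end. Its log2 difference was -0.11 (standard error 0.17). A second, dim Itgal probe set, 1425367_at, measured 88.2, 99.4 and 84.6 against 121, 117 and 111. There the groups did not overlap, with a difference of -0.32 (standard error 0.17, limma adjusted p = 1). But the probe set was at or above the array median on the 3 control arrays alone, the group where it was higher.

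Itgb2, without which none of these alpha chains reaches the cell surface, measured 3347, 3265 and 2539 in lactation and 2747, 3659 and 3444 in controls. Lactation replicate 3 and control replicate 1 were the low array of their groups, and control replicate 1 lay inside the lactation range. The means were 3050 ± 445 and 3283 ± 477, a log2 difference of -0.11 (standard error 0.15). Within an array the log2 level of Itgam relative to that of Itgb2 was -3.91, -3.81 and -3.67 in lactation and -3.52, -3.13 and -3.13 in controls. These values did not overlap and differed by -0.53 (standard error 0.15). Relative to Itgal the difference was -0.53 (standard error 0.19), also without overlap, and relative to Itgax it was -0.49 (standard error 0.40) with overlap. Itgb2 and Itgal each differed by only -0.11, so both of the differences without overlap largely repeat that of Itgam itself. The pairs were chosen after the values were seen and were not tested. How many other genes would separate in this way relative to Itgb2 or Itgal was not computed.

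**Figure D1:**
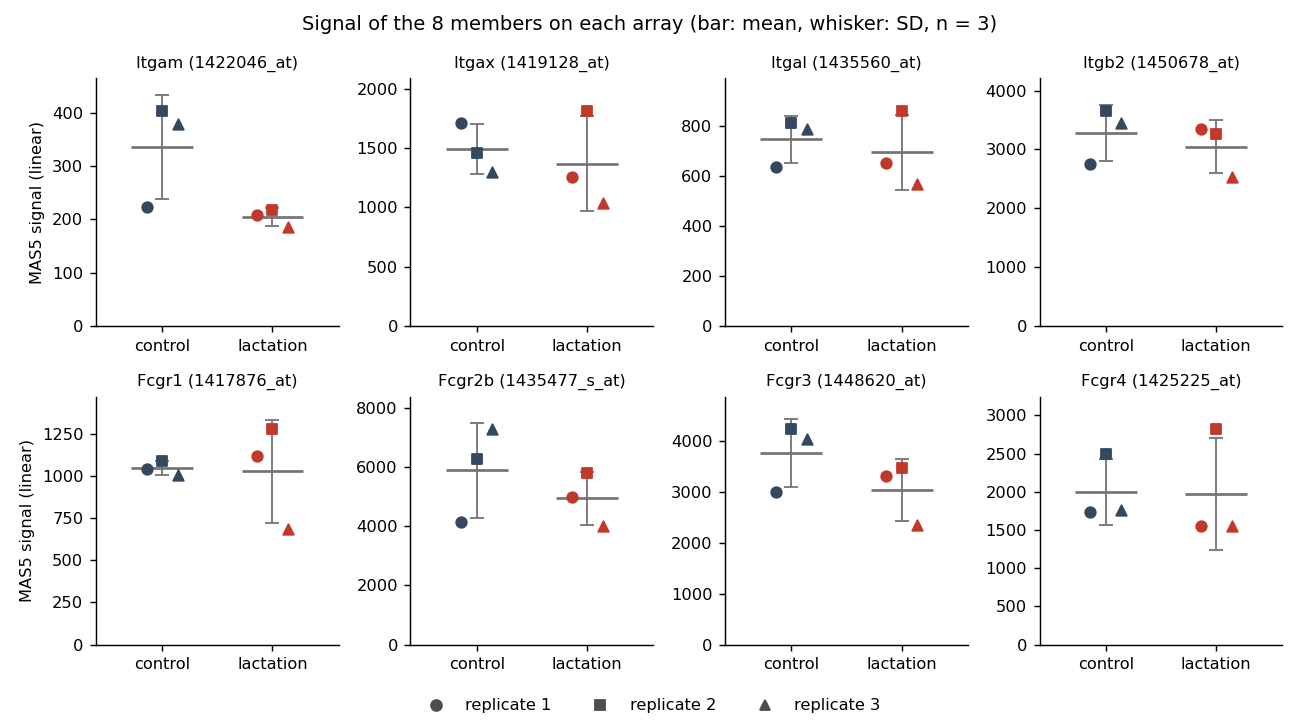
MAS5 signal (linear axis from 0) of the brightest probe set of each of the 8 genes on every array, by group; markers give the replicate number, the bar the mean and the whisker the SD (n = 3). The Itgam lactation arrays, 185 to 218, lie under the control arrays, 224 to 404, and the groups overlap for the other 7 genes.

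Among the activating IgG receptors, Fcgr1 encodes the high-affinity receptor CD64. It measured 1120, 1278 and 685 in lactation and 1044, 1091 and 1007 in controls, so that the 3 controls were nearly equal while the lactation arrays lay on either side of them. The log2 difference was -0.07 (standard error 0.22). Its second probe set, 1436625_at, had 366, 470 and 282 against 403, 361 and 291, and a difference of the other sign, 0.06 (standard error 0.21).

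Fcgr3, a low-affinity activating receptor of macrophages, neutrophils, NK cells and mast cells, measured 3310, 3459 and 2337 in lactation and 2995, 4222 and 4040 in controls. The 2 highest arrays were controls and the lowest was lactation replicate 3, while control replicate 1 lay inside the lactation range. The log2 difference was -0.31 (standard error 0.19, limma unadjusted p = 0.144, adjusted p = 1), and it was -0.13 without lactation replicate 3. Fcgr4, an activating receptor of monocytes, macrophages and neutrophils, measured 1551, 2818 and 1545 against 1739, 2490 and 1755. In each group replicate 2 stood above the other arrays, and the log2 difference was -0.06 (standard error 0.26).

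The inhibitory receptor Fcgr2b had 5 probe sets. The brightest, 1435477_s_at, measured 4996, 5790 and 4017 in lactation and 4140, 6249 and 7271 in controls, with control replicate 1 near the lowest lactation array and the other controls above all 3. Its log2 difference was -0.23 (standard error 0.22), which became -0.06 when control replicate 3 was left out and -0.47 when control replicate 1 was. Differences of -0.22, -0.24 and -0.33 were measured by 1435476_a_at, 1455332_x_at and 1451941_a_at, all with overlapping groups. The fifth, 1447622_at, had signals from 0.288 to 8.43, under the array median on all 6 arrays, and is no measure of the gene here. Suffixes _s_at and _x_at mark probe sets whose probes can match more than 1 transcript, and Fcgr2b and Fcgr3 are close in sequence; whether they share signal was not tested.

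No activating receptor stood clearly apart from the inhibitory one. The log2 level of Fcgr4 relative to Fcgr2b was -1.68, -1.03 and -1.37 in lactation and -1.24, -1.32 and -2.04 in controls, a difference of 0.18 (standard error 0.31). For Fcgr3 relative to Fcgr2b the difference was -0.08 (standard error 0.13), and for Fcgr1 it was 0.16 (standard error 0.28). All these groups overlapped, and the values were not tested further.

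Within each group most members shared their high and low arrays. Lactation replicate 3 was the lowest of all 6 arrays for 8 of the 8 genes. By the looser measure of lying under all 3 controls it was also 8 of the 8, beside 25.4% of all genes tested. The same array was the highest of the 6 for 7 of 7 ductal tumour cell markers. All 7 had a higher mean in lactation, with a median log2 difference of 0.29, and 0 passed the adjusted test. Their summed signal ranged from 63953 to 88978 in lactation and from 60751 to 74677 in controls, and the part of tumour cell content in the members' values was not tested. Lactation replicate 2 was the highest lactation array for 7 of the 8, and control replicate 1 the lowest control for 6. The highest control was replicate 1 for Itgax, replicate 3 for Fcgr2b and replicate 2 for the other members. Without lactation replicate 3 only 3 of the 8 genes, Itgam, Fcgr2b and Fcgr3, had a lower mean in lactation, and the median log2 difference went from -0.13 to 0.02. The differences of Itgax, Itgal, Itgb2, Fcgr1 and Fcgr4 were then 0.03, 0.02, 0.02, 0.19 and 0.09. Fcgr4 was also positive without lactation replicate 1, at 0.09, and without control replicate 2, at 0.11. That of Itgam was -0.58 without lactation replicate 3. The number of members without overlap was 4 when control replicate 1 was omitted, 3 for lactation replicate 2 and 2 for lactation replicate 3. In the same 3 fits 21.7%, 18.2% and 12.1% of all genes tested had groups that did not overlap. With all arrays, 51.7% of all genes had a difference below 0 and their median was -0.005.

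**Figure D2:**
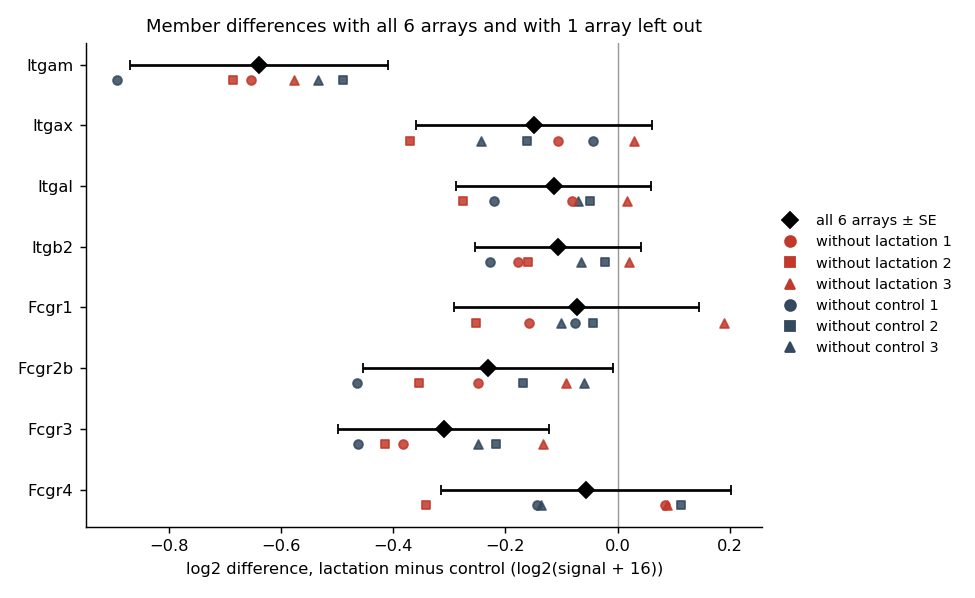
Log2 difference of each gene, lactation minus control, with all 6 arrays (diamond, bar the standard error) and with 1 array left out (small markers, coloured by the group of the omitted array). Itgam stays between -0.89 and -0.49, whereas 5 of the 8 genes cross 0 when lactation replicate 3 is omitted.

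Markers of leukocytes and of macrophages were also lower on average in lactation. All 7 of 7 pan-leukocyte markers, among them Ptprc and the surface glycoprotein Cd52, were above the level filter, which keeps genes at or above the array median on at least 3 arrays. Their summed signal ranged from 19440 to 29409 in lactation and from 25413 to 31287 in controls, and their median log2 difference was -0.13 (0.09 without lactation replicate 3). The 10 macrophage markers summed to between 47779 and 63691 in lactation and between 61250 and 69784 in controls. Of these 9 had a lower mean in lactation, with a median of -0.26 that was -0.09 without lactation replicate 3. Cd68, a lysosomal protein of macrophages, had a difference of -0.35 (standard error 0.20), which shrank to -0.13 with lactation replicate 3 omitted. Cd14, the lipopolysaccharide co-receptor, had one of 0.41 (standard error 0.22), and of 0.64 with lactation replicate 2 omitted. No marker of these lists passed the adjusted test, and none was at 0.

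Neutrophils carry much CD11b too. Of 9 neutrophil markers 7 had a probe set and 4 passed the filter, 3 of them with a higher mean in lactation. The remaining one, the dim chemokine receptor gene Cxcr2, had a lower mean, with a log2 difference of -0.39 (standard error 0.31). Csf3r measured 591, 669 and 628 in lactation and 496, 520 and 559 in controls, and it alone of the 4 had groups without overlap. Of all genes tested, 6.90% had such groups in either direction. Csf3r did not pass the adjusted test. S100a8, a calcium-binding alarmin subunit, measured 4601, 2678 and 2856 in lactation and 2993, 2100 and 2013 in controls, and its partner S100a9 had a difference of 0.40 (standard error 0.29). Omitting lactation replicate 1 gave 0.25 for S100a8 and 0.15 for S100a9, and omitting control replicate 1 gave 0.67 and 0.66. The median over the 4 tested markers was 0.33, and it was 0.66 with control replicate 1 omitted and 0.21 with control replicate 2 omitted. The neutrophil granule genes Camp, Mmp8 and Ngp lay below the filter, and Ly6g and Retnlg were not analysed here. The summed neutrophil markers ranged from 4968 to 7881 in lactation and from 3743 to 5582 in controls. These ranges overlapped, and 1 lactation array, replicate 1, lay above all controls. Mast cell markers, which are not a main source of Itgam but include cells that carry Fcgr3 and Fcgr2b, summed to between 2001 and 2790 in lactation and between 4709 and 8131 in controls. Of the 7 tested, Tpsb2 and Ms4a2 passed the filter through the control arrays alone. The other 5 had a lower mean in lactation, and 0 passed the adjusted test. Over all 7 the median log2 difference was -1.21, which includes Tpsb2 and Ms4a2. When a control was omitted 5 were tested, with a median of -1.024, -0.809 and -1.055 for control replicates 1, 2 and 3. The part of these cells in the members' values was not tested.

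Other leukocyte markers showed no common direction. Dendritic cell markers had a median difference of -0.05, with 3 of 5 lower, T cell markers of -0.05, with 3 of 6 lower, and NK cell markers of 0.04, with 1 of 4 lower. With 1 array omitted these medians turned sign: they spanned -0.36 to 0.27 for dendritic cells (control replicates 1 and 2 omitted), -0.29 to 0.21 for T cells (control replicates 3 and 2) and -0.08 to 0.28 for NK cells (lactation replicate 2 and control replicate 2). Of the B cell markers 0 of the 4 with a probe set passed the filter, which leaves Fcgr2b on B cells without a marker to set it against. Sums ranged from 687 to 1291 in lactation and 745 to 1519 in controls for dendritic cells, and from 1374 to 1872 and 1232 to 2497 for T cells. For NK cells they ranged from 777 to 974 and from 674 to 1047, and for B cells from 131 to 263 and from 192 to 236.

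When each member was set against the mean log2 level of the pan-leukocyte markers on the same array, the members no longer shared a sign. Relative differences were negative for 4 and positive for 4 genes, from -0.50 for Itgam to 0.09 for Fcgr4. Relative Itgam values in lactation were -3.99, -4.06 and -3.71, beside -3.83, -3.32 and -3.12 among controls, with control replicate 1 among the lactation arrays and a standard error of 0.24. The difference lay between -0.70 and -0.34 when 1 array was left out, the first without control replicate 1 and the second without control replicate 3. Fcgr3 had -0.17 (standard error 0.12), and it was -0.06 without control replicate 3. Against the macrophage markers Itgam had -0.44 (standard error 0.18, with overlap) and Fcgr3 -0.11 (standard error 0.08).

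Itgb2 had the smallest standard error of the 8 members when set against the macrophage markers. Its log2 level relative to them was -0.39, -0.38 and -0.34 in lactation and -0.53, -0.43 and -0.44 in controls. These groups did not overlap, by a small difference of 0.10 (standard error 0.04), which lay from 0.07 to 0.12 with 1 array left out. Against either marker list every other member had overlapping groups. The share of all genes that would separate in this way was not computed, and the Itgb2 difference was not tested. Itgb2 alone was slightly lower in lactation and relative to these markers slightly higher.

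**Figure D3:**
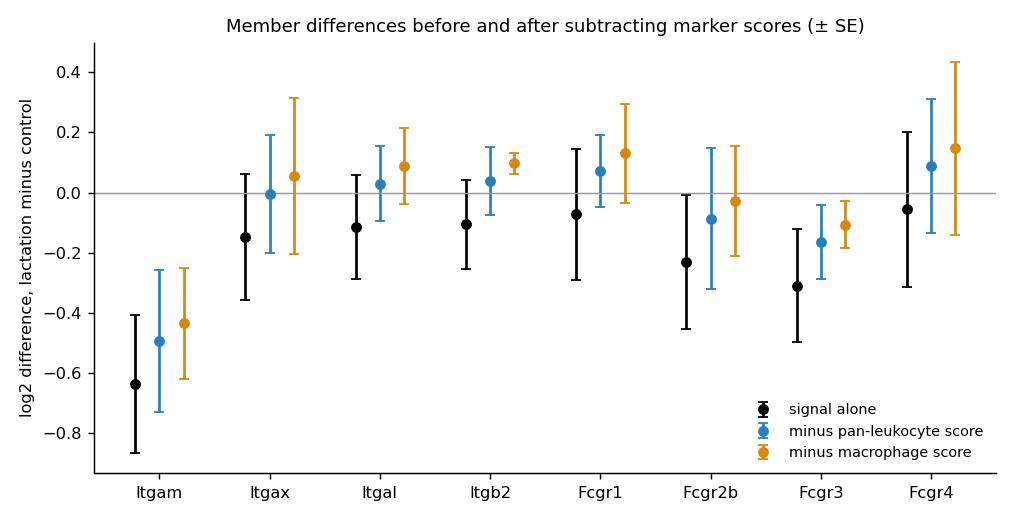
Log2 difference, lactation minus control, of each gene alone (black) and after subtracting the mean log2 level of 7 pan-leukocyte markers (blue) or 10 macrophage markers (orange) on the same array; bars are standard errors (n = 3 per group). Itgam stays negative at -0.50 and -0.44, and the other members lie between -0.17 and 0.15.

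Other integrin chains and ligands had differences in both directions, and none passed the adjusted test. Of 6 other leukocyte integrin chains tested, 3 were lower and 3 higher, with a median of -0.05. The fibronectin receptor chain Itga5 had the largest difference, -0.20, followed by -0.13 for Itgae, which binds E-cadherin, and -0.12 for Itga4 of VLA-4. Itga5 shrank to -0.05 with control replicate 3 omitted. Itgae was 0.07 without control replicate 2 and 0.02 without lactation replicate 3, and Itga4 was 0.11 without the latter. Among 6 tested integrin ligands and counter-receptors the median was 0.02. Icam1, the main ligand of LFA-1 and Mac-1, measured 974, 1019 and 845 in lactation and 837, 1144 and 868 in controls. Icam2, an endothelial LFA-1 ligand, had -0.26 (standard error 0.27), Jam3, a junction protein bound by Mac-1, -0.25 (standard error 0.22) and Vcam1, a ligand of VLA-4, 0.14 (standard error 0.34). Icam2 shrank to -0.03 with lactation replicate 3 omitted and Jam3 to -0.04 with control replicate 3 omitted. Vcam1 was -0.23 without control replicate 3, -0.10 without lactation replicate 2 and -0.01 when its probe sets were averaged. The complement gene C3 was not analysed here.

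Of 13 genes that activate integrins or link them to actin 9 were lower and 4 higher, with a median of -0.03. Fermt3, the kindlin of blood cells that switches leukocyte integrins on, had a difference of -0.28 (standard error 0.23), the adaptor Fyb -0.21 (standard error 0.26) and the T cell adaptor Skap1 0.16 (standard error 0.20). Fermt3 was -0.07 without lactation replicate 3, and Fyb 0.005 without control replicate 2. Skap1 ranged from 0.08 with control replicate 3 omitted to 0.25 with control replicate 2 omitted. None of these lists had a member past the adjusted threshold in either direction.

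Signalling genes of the activating IgG receptors had mostly lower means in lactation, by small amounts. Fcer1g, the gamma chain on which Fcgr1, Fcgr3 and Fcgr4 depend, measured 4380, 5661 and 3290 in lactation and 5207, 5668 and 5388 in controls. Its log2 difference was -0.32 (standard error 0.18), and -0.12 without lactation replicate 3. Of 11 kinases and adaptors tested 8 were lower, with a median of -0.10. The B and myeloid cell kinase Btk had -0.19 (standard error 0.20) and the phosphoinositide kinase Pik3cd 0.28 (standard error 0.14), which was 0.04 when its probe sets were averaged. Omitting control replicate 2 left Btk at -0.03, and Pik3cd ranged from 0.18 with lactation replicate 2 omitted to 0.44 with lactation replicate 1 omitted. Syk, the kinase recruited by the gamma chain and named here outside the rule, had -0.10 (standard error 0.23).

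All 6 tested inhibitory phosphatases and receptors had lower means, with a median of -0.17 that was 0.004 without lactation replicate 3. Pirb, an inhibitory receptor of myeloid and B cells, had -0.21 (standard error 0.26), Clec4a2, an inhibitory lectin of dendritic cells, -0.20 (standard error 0.33) and Sirpa, the macrophage receptor for CD47, -0.19 (standard error 0.20). Pirb and Clec4a2 were 0.01 and 0.15 without lactation replicate 3, and Clec4a2 was 0.02 without control replicate 2. Sirpa ranged from -0.38 with control replicate 1 omitted to -0.06 with lactation replicate 3 omitted. The phagocyte NADPH oxidase, which IgG-coated targets activate, had 5 of 5 tested genes lower and a median of -0.22 (0.03 without lactation replicate 3). Its membrane chains Cyba and Cybb each had a difference of -0.34 (standard error 0.21 and 0.23), and -0.12 and -0.08 with lactation replicate 3 omitted. The cytosolic subunit Ncf1 had -0.22 (standard error 0.24), which was 0.03 without lactation replicate 3. In each of these lists 0 genes passed limma's adjusted test.

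**Figure D4:**
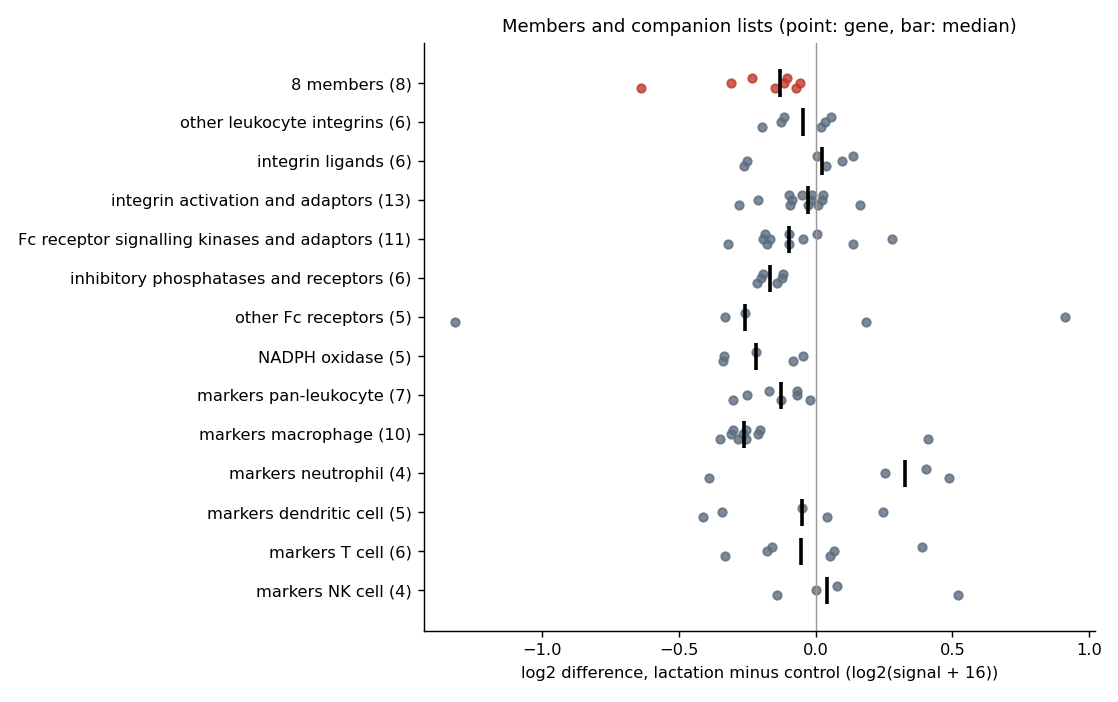
Log2 difference, lactation minus control, of each tested gene (points) of the 8 members and of the lists named on the axis. The bar is the list's median, and the number of tested genes is in brackets. Lists of IgG heavy chains and of mast cell, ductal tumour, fibroblast, endothelial and B cell markers are not drawn. Medians are -0.13 for the members, -0.26 for macrophage markers and 0.33 for neutrophil markers.

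Other Fc receptors varied more than the 4 members. Of 5 tested, 3 were lower and 2 higher, with a median of -0.26, which was 0.18 over all 10 with a probe set. The genes added to reach 10 lay under the array median on every array, so the 0.18 rests largely on very dim signals. The count and median of the 5 tested include Fcer1a, which drops out when a control is omitted. The median of the other 4 was then -0.06, -0.02 and -0.01 for control replicates 1, 2 and 3. Fcer1a, the IgE-binding chain of mast cells and basophils, measured 79.3, 95.4 and 54.5 in lactation and 202, 359 and 127 in controls and did not overlap. Its log2 difference was -1.32 (standard error 0.37, limma adjusted p = 1), and it passed the filter through the control arrays alone. Pigr, the epithelial transporter of polymeric immunoglobulins, had 0.91 (standard error 0.52), and it was 0.49 without control replicate 3 and 1.38 without lactation replicate 2. Fcrls, a receptor-like gene of resident macrophages, had -0.33 (standard error 0.23), which was -0.13 without lactation replicate 3.

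Of the IgG heavy chain genes looked up, Ighg3 alone had a named probe set here, and Ighg1, Ighg2b and Ighg2c had none. Whether the product of Ighg3 binds any of the 4 receptors was not examined. The probe set 1427503_at measured 355, 1664 and 205 in lactation and 113, 83.2 and 63.7 in controls, a log2 difference of 2.36 (standard error 0.69, limma adjusted p = 1). It was 1.51 with lactation replicate 2 omitted and 2.97 with lactation replicate 3 omitted. Lactation replicate 2, the highest of these by far, was also the highest array for Itgax, Itgal, Fcgr1 and Fcgr4. Itgam, Itgb2, Fcgr2b and Fcgr3 were highest on a control array, and a link to Ighg3 was not tested. The other Ighg3 probe sets had signals from 0.486 to 21.9, below the filter, and differences of -0.29, -0.23 and 0.03.

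The genes most like each member were sought as those with the smallest root mean square distance between log2 values over the 6 arrays, each gene centred on its own mean. For Itgam they were Aldh1l2, Anpep and Eif4e3, at distances of 0.14 each. Anpep is aminopeptidase N, also known as the myeloid antigen CD13. Itgax was closest to Runx3, Rundc3b and Pex5 (0.04 for the first, a transcription factor of leukocytes), and Itgal to Rassf5, Entpd1 and Aldh3b2. Rassf5, at 0.04, encodes RAPL, a partner of LFA-1, and was on the list of integrin activators. Itgb2 was closest to D16Ertd472e, Spring1 and Fam122b.

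Among the receptors Fcgr1 was nearest to Themis2, Lss and Pex14 and Fcgr2b to Mfhas1, Zfp677 and Dab2. Fcgr3 was nearest to the oxidase chain Cyba, at 0.05, and then to 2210016F16Rik and Tnfaip8l2, and Fcgr4 to Sox2, P2ry14 and Gm6377. No member was among the 3 nearest genes of another. The nearest member to Itgam was Fcgr3, at a distance of 0.22 and rank 56 of 11622 genes. With 6 arrays and this many genes such neighbours describe these tumours only, and they were not tested.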

How the data were processed

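RNA of 6 tumours was labelled with biotin for Affymetrix arrays, per the labels' protocols. The deposited table holds 1 linear intensity per probe set and array, 45101 probe sets in all, made by the authors with MAS5 per the submitters' processing notes. Arrays had a common mean of 500.0 after trimming 2% at each end. Array medians ranged from 99.3 to 111.0, and the number of arrays limits the precision. Neither scanner output nor detection calls were used here.

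Values were log2 of signal plus 16, so fold changes of dim genes are understated. For each gene the probe set with the highest mean log2 value was taken. Genes at or above the array median on at least 3 arrays were kept, 11623 of 18194. Groups were compared with limma 3.58.1 in R 4.3.3 (intensity trend, group as the only term, Benjamini-Hochberg at 0.05). The same fit was also run on simulated data of independent noise, with means and spreads taken from the reported fit. Those data lack arrays on which many genes move together. Other tables and plots used Python 3.11.15.

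The members, the lists and the alternatives were chosen with earlier results of these data known. Named were all members, up to 3 genes of each companion list and up to 2 of some marker lists with the largest differences, and the 3 nearest genes of each member. Icam1, Syk, Ptprc, Cxcr2 and Csf3r fall outside this rule. Same-numbered arrays did not pair: their deviations from the group means correlated at 0.14, -0.08 and 0.27 over genes, and nothing in the labels ties numbers across groups. Promoter sequences are from RefSeq, GRCm38.p6; no protein sequences were used here.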

Additional observations from a re-analysis of the deposited data

How the results depend on the processing

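With 12 alternatives that kept all arrays, covering scaling, added constants, filters, probe sets, the variance model and the replicate block, 0 genes passed an adjusted p under 0.05 in limma, and 0 did with any array left out. The reported fit had 264 genes at an unadjusted p under 0.05, and the fit with no filter 577. With the replicate number as a block 0 of the 8 members passed, and 289 genes had an unadjusted p under 0.05; 2 of the 6 arrays correlated best with their own number. All 8 members had a lower mean under every alternative that kept all arrays and the filter at the median, and 7 of 7 with a filter at the 70th percentile, which removes Itgam and leaves 0 members without overlap. The second Fcgr1 probe set gave 0.063 and Vcam1 gave -0.013 with the mean of its probe sets. With 1 array left out, 3 to 8 members were lower, 1 to 4 had groups without overlap (12.1% to 21.7% of all genes tested), 0 were called, and the median of the members ranged from -0.35 to 0.02. Among named genes that turned sign in these fits, ranges were -0.37 to 0.03 for Itgax, -0.28 to 0.016 for Itgal, -0.23 to 0.02 for Itgb2, -0.25 to 0.19 for Fcgr1, -0.34 to 0.11 for Fcgr4, -0.30 to 0.067 for Itgae, -0.31 to 0.11 for Itga4, -0.23 to 0.34 for Vcam1, -0.42 to 0.005 for Fyb, -0.43 to 0.012 for Pirb, -0.44 to 0.15 for Clec4a2 and -0.39 to 0.027 for Ncf1. For Fcgr2b, leaving out control replicate 1 gave -0.47 and leaving out control replicate 3 gave -0.06. The causes were not tested. With 3 arrays a group none of the 8 differences passed the adjusted test.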
